A study of Homo sapiens with 6 samples.

Results

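Amino acid transporter genes are described here across 6 libraries of ribosome-bound mRNA from MDA-MB-231 cells. They were taken by symbol, as every gene whose name begins with SLC1A, SLC3A, SLC6A, SLC7A, SLC36A, SLC38A or SLC43A and a digit. Pseudogenes (SLC6A10P, SLC7A5P1 and SLC7A5P2) were left out. The rule found 60 of the 21619 genes in the files. SLC7A6OS, which lies on the opposite strand of SLC7A6 and encodes no transporter, was among them and is given on its own, leaving 59 transporter genes. The SLC6 family also carries neurotransmitters, taurine and creatine, so not every gene on the list moves a protein-building amino acid.

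MDA-MB-231 is a human triple-negative breast cancer line. Its cells carried EGFP fused to ribosomal protein L10a, and ribosomes with their mRNA were pulled down with an antibody to GFP (translating ribosome affinity purification, TRAP). All cells, controls included, expressed the tag and were kept for 24 h in 0.2% serum. Untreated cells were compared with cells given CXCL12 at 30 ng/mL plus IGF1 at 10 ng/mL (the lower dose) or CXCL12 at 300 ng/mL plus IGF1 at 100 ng/mL (the higher dose) for 6 h. Each of the 3 groups had 2 libraries, a and b, which the labels call biological replicates. P-values measure only spread between such libraries, and the fit drew each gene's spread partly from that of other genes. A gene's own 2 libraries can thus differ by more than its standard error implies. CXCL12 is a chemokine and IGF1 a growth factor of the insulin family. They were given together, so their separate parts cannot be told apart. How the tagged line was selected is not given in the sources used here.

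Reads on genes came to 26255079 to 30280322 a library. The markers VIM, CD44, CAV1 and AXL stood at 655 to 3750 CPM (read counts scaled to library size and TMM factor), while ESR1, PGR and CDH1 had at most 13 reads and EPCAM 11.3 to 13.6 CPM. The markers of leukocytes (PTPRC, CD3E) and hepatocytes (ALB) had at most 14 reads. PECAM1, of endothelium, had 1.13 to 1.94 CPM and COL1A1, of fibroblasts, 5.95 to 7.2 CPM (at most 205 reads). Across all genes tested, longer transcripts had lower log2 fold changes at the higher dose (Spearman rho −0.23 over 11962 genes, a description). The tested transporter genes had a median transcript length of 4410 nt, against 3437 nt for all tested genes. Among them log2 fold change and length had a rho of 0.24 (28 genes). Total RNA was not analysed here, so the amount of an mRNA and its share on ribosomes cannot be told apart, and in bulk libraries fewer expressing cells and less RNA per cell cannot be told apart.

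Amino acid transporters bring essential amino acids, glutamine and cystine into the cell. Several work as pairs: the single-span heavy subunit SLC3A2 (4F2hc, CD98) carries light subunits such as SLC7A5 (LAT1), which brings in leucine and other large neutral amino acids in exchange for glutamine. The glutamine comes in through sodium-coupled carriers such as SLC1A5 (ASCT2) and SLC38A2 (SNAT2). On lysosomes, SLC38A9 reports arginine to the kinase complex mTORC1 and SLC36A1 exports small neutral amino acids. Growth factors and the amino acid response factor ATF4 are both known to regulate many of these genes.

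In starved, untreated cells the system of SLC7A5 and SLC3A2 led the list. Genes were compared per kb of each gene's longest annotated transcript, which these cells need not use. The spread given is that between libraries and holds no error in length. SLC7A5 had 381 ± 10.5 CPM per kb and SLC3A2 220.5 ± 12.6 CPM per kb in untreated cells (SD, n = 2, as for all means here). SLC43A3, a transporter that carries purine nucleobases, had 137 ± 0.99 CPM per kb and SLC1A5 134 ± 2.3 CPM per kb, a gap of little more than their spread. SLC38A2 followed at 50.2 ± 0.45 CPM per kb. These 5 genes were also the highest at both doses, and no other tested gene passed 25.5 CPM per kb in untreated cells.

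The middle of the order was held by SLC7A1, which takes up arginine and lysine, at 25.5 CPM per kb and the glutamine carrier SLC38A1 (SNAT1) at 23.0 CPM per kb. SLC38A10, the taurine transporter SLC6A6 and the glycine transporter SLC6A9 (GLYT1) stood at 17.0 to 17.7 CPM per kb and did not differ beyond their spread. SLC36A4, SLC7A6, SLC1A4, SLC43A1 and the cystine carrier SLC7A11 (xCT) lay between 6.83 and 9.49 CPM per kb. SLC38A6, SLC38A4, SLC38A9 and SLC36A1 lay between 4.20 and 4.68 CPM per kb, and SLC7A2, SLC38A7 and the creatine transporter SLC6A8 between 1.36 and 2.18 CPM per kb. The glutamate carriers SLC1A1 and SLC1A3, SLC7A7, SLC43A2, SLC1A7 and SLC6A14 had less than 1 CPM per kb.

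**Figure D1:**
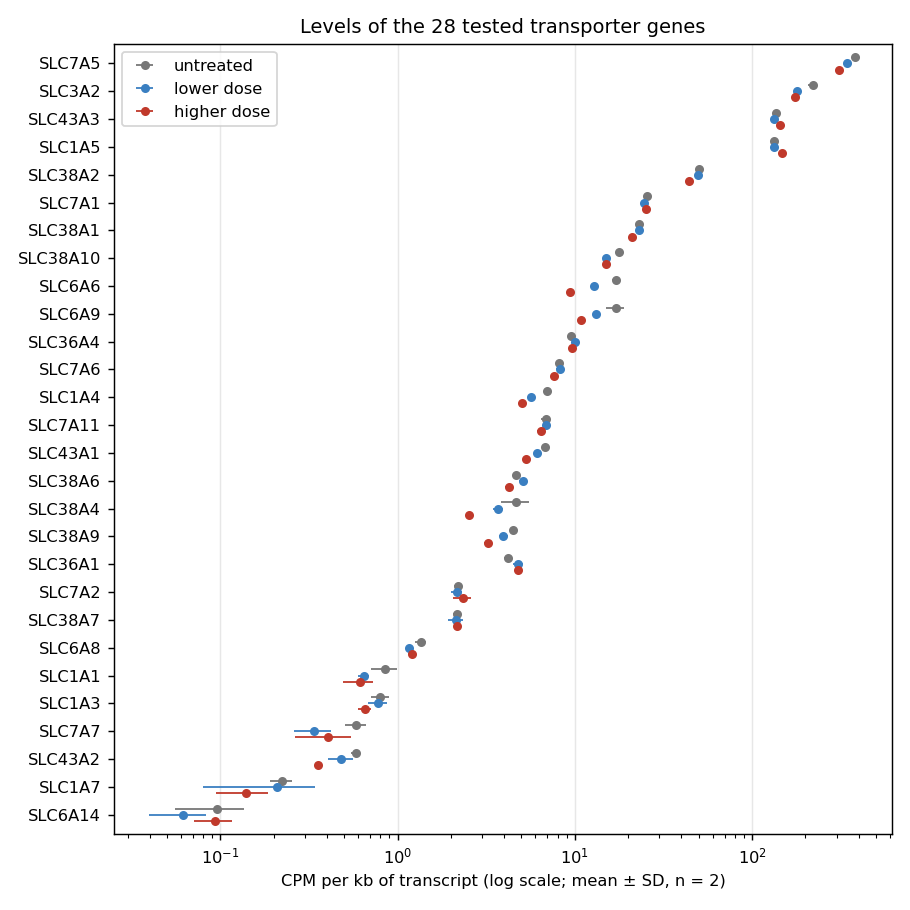
Levels of the 28 tested transporter genes as CPM per kb of transcript (log axis), with points for the mean and bars for the SD of 2 libraries in untreated cells (grey), at the lower dose (blue) and at the higher dose (red). SLC7A5 and SLC3A2 stand at the top in each group, and SLC6A6 and SLC38A4 show the widest steps downward with dose among the genes above 1 CPM per kb.

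The other 31 transporter genes did not pass the low-count filter. Of these, 12 had 0 reads in every library, which allows up to 0.0991 to 0.114 CPM a library (3 reads, counting error only), among them SLC38A3, SLC38A8, SLC38A11, SLC6A2, SLC6A5, SLC6A17, SLC6A18, SLC7A3, SLC7A4, SLC7A10 and SLC7A13. A further 17 had at most 4 reads in any library, namely SLC1A2, SLC1A6, SLC36A3, SLC38A5, SLC6A3, SLC6A4, SLC6A7, SLC6A11, SLC6A12, SLC6A13, SLC6A15, SLC6A16, SLC6A19, SLC6A20, SLC7A8, SLC7A9 and SLC7A14. SLC36A2 had 1 to 7 reads and SLC3A1, the heavy subunit of the kidney cystine transporter, 3 to 12 reads. The transporters of dopamine, serotonin and noradrenaline (SLC6A3, SLC6A4, SLC6A2) were thus at or near 0.

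The summed level of the family was lower at both doses. The summed level of the 59 genes was 4216 and 4095 CPM without treatment, 3761 and 3856 CPM at the lower dose, and 3657 and 3589 CPM at the higher dose, and no groups overlapped. SLC7A5 alone made up 41.4% to 41.8% of this sum in untreated cells, 40.6% to 40.8% at the lower dose and 38.6% to 38.9% at the higher dose. Without SLC7A5 the sum averaged 2427 ± 37.7 CPM without treatment, 2259 ± 35.3 CPM at the lower dose and 2219 ± 20.7 CPM at the higher dose. These sums are weighted by the few abundant genes and carry no test.

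Promoter sequence was looked at for motifs of factors known to act on these genes. The windows ran from 250 bases before to 50 after each RefSeq start (300 bases, GRCh38.p14), both strands were read, and a gene could have several windows. TGATGNAA, the element read by ATF4 with CEBP factors, stood in 14.3% of the 42 windows of tested transporter genes and in 3.62% of all 35116 windows. CACGTG, the E-box read by MYC, USF and TFEB factors, stood in 16.7% of the 42 and 7.26% of all. TGACNNNGC, the core of the antioxidant element read by NRF2, stood in 16.7% and 13.3%. The 42 windows are of genes that passed the low-count filter, while the 35116 were taken whether or not their genes passed. The shares are thus of unlike sets. Windows of 1 gene can overlap, a match is no proof of a site, and a window without a match says nothing about the factor. Stretches before the start are shown for the leading pair SLC7A5 and SLC3A2, which fell at both doses, and for SLC36A1, which rose at both, with the motif in capitals (CACGTG in SLC7A5 and SLC36A1, TGACNNNGC in SLC3A2). They lie at chr16:87869606-87869663 (minus strand), chr11:62881636-62881696 (plus strand) and chr5:151447534-151447591 (plus strand).
SLC7A5: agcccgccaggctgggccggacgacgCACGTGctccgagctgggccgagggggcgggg
SLC3A2: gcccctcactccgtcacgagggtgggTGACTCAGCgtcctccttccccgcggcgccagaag
SLC36A1: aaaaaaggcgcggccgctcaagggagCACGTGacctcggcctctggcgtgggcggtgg
SLC7A5 also held TGACNNNGC across its start, and SLC3A2 held TGATGNAA on the other strand, 37 bases after a start; neither is printed. SLC36A1 held a second CACGTG 8 bases before its start. The motif shown began 130 bases before the start in SLC7A5, 37 in SLC3A2 and 43 in SLC36A1. CACGTG also stood in windows of SLC1A5, which rose at the higher dose, and of SLC43A1, which fell there. The other tested genes with it, SLC1A7, SLC38A7 and SLC7A7, did not pass at that dose. TGATGNAA stood in windows of SLC3A2, SLC1A4 and SLC38A1, which fell at the higher dose, and of SLC1A5, which rose. It also stood in windows of SLC1A3 and SLC7A1, which did not pass. The matches in SLC1A4, SLC38A1, SLC7A1 and SLC3A2 crossed or followed a start. Whether any motif bears on the changes was not tested.

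The higher dose against untreated cells asks how strong stimulation after starvation altered these mRNAs. Of 28 tested transporter genes, 13 fell, 2 rose and 13 did not pass. That is 53.6% called, against 56.3% of all 13548 tested genes. Falls were 46.4% of the transporter genes and 28.2% of all genes, and rises 7.14% and 28.1%. The median log2 fold change was −0.22 for the transporter genes and −0.00083 for all tested genes. The 13 falls had log2 fold changes of −0.86 to −0.13, and the 2 rises 0.14 and 0.19. The falls came from the leucine system, the SLC38 family, and the SLC6, SLC1 and SLC43 families.

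The lower dose against untreated cells asks the same of the weaker stimulus. Here 8 of 28 fell, 1 rose and 19 did not pass, 32.1% called against 32.6% of all tested genes. Falls were 28.6% of the transporter genes and 15.9% of all genes, and rises 3.57% and 16.7%. The median was −0.11 for the transporter genes and −0.0021 for all genes. Both comparisons share the untreated libraries, so their values are set side by side below and not counted as independent.

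The higher against the lower dose asks whether the stronger stimulus added to the change. Of 28 genes 11 fell, 2 rose and 15 did not pass, 46.4% called against 34.0% of all tested genes. Falls were 39.3% of the transporter genes and 17.6% of all genes, and rises 7.14% and 16.4%. The medians were −0.10 and −0.00086. DESeq2 called 6 falls, and leaving out a library also altered the count in edgeR. The shares of all tested genes under these settings are not reported here, so the 6 cannot be set beside the 17.6%.

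**Figure D2:**
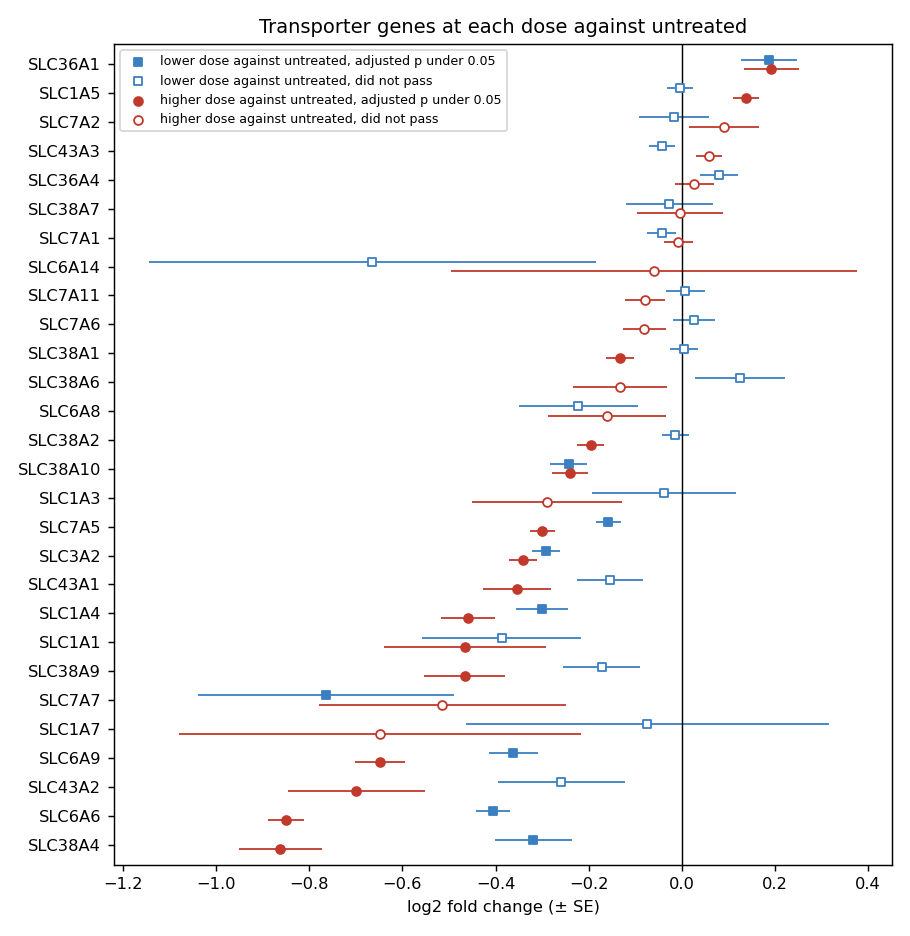
Log2 fold changes (points) with SE (bars) of the 28 tested transporter genes at the lower dose (blue squares) and the higher dose (red circles), each against untreated cells; filled symbols passed an adjusted p of 0.05 in edgeR. SLC36A1 and SLC1A5 are the filled red points right of 0 and 13 filled red points lie left of it, down to −0.86 for SLC38A4.

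Both genes of the leucine system fell at each dose against untreated cells, and SLC7A5 also fell between the doses. SLC7A5 had 1762 and 1695 CPM without treatment, 1527 and 1572 CPM at the lower dose, and 1423 and 1385 CPM at the higher dose. No groups overlapped, and the 6 libraries stood in the order of the doses. SLC7A5 fell by 18.8% at the higher dose (log2 fold change −0.30 ± 0.03 SE, edgeR adjusted p = 1.36e-14), by 10.3% at the lower dose (−0.16 ± 0.03, adjusted p = 2.98e-06) and between the doses (−0.14 ± 0.03, adjusted p = 1.75e-05). Reads shared with its near-identical pseudogenes cannot be assigned; SLC7A5P2 had 18 to 23 reads and SLC7A5P1 0 to 2 reads a library.

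Its partner SLC3A2 had 509.6 and 470.1 CPM without treatment, 398 and 402 CPM at the lower dose, and 397 and 376 CPM at the higher dose. The libraries of both doses lay below those of untreated cells and close to each other. SLC3A2 fell by 21.1% at the higher dose (−0.34 ± 0.03, edgeR adjusted p = 1.82e-14) and by 18.3% at the lower dose (−0.29 ± 0.03, adjusted p = 2.79e-11), while the doses differed by −0.05 ± 0.03 (adjusted p = 0.214). The reads of SLC7A5 per read of SLC3A2 were 3.46 and 3.60 in untreated cells, 3.84 and 3.91 at the lower dose, and 3.59 and 3.68 at the higher dose. This ratio was highest at the lower dose, and the untreated and higher dose libraries overlapped.

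None of the other 3 tested light subunit genes passed at the higher dose. SLC7A11, which pairs with SLC3A2 to exchange cystine for glutamate, had 63.6 and 68.4 CPM without treatment, 65.2 and 67.7 CPM at the lower dose, and 64.9 and 60.3 CPM at the higher dose. It did not pass at either dose (0.0078 ± 0.04, edgeR adjusted p = 0.912 at the lower, −0.08 ± 0.04, adjusted p = 0.113 at the higher). Without untreated a it passed as a fall at the higher dose (−0.13, adjusted p = 0.0187), and likewise without higher dose a (−0.13, adjusted p = 0.0307). SLC7A6 (y+LAT2), an exchanger of cationic for neutral amino acids, averaged 48.3 ± 1.7 CPM at the higher dose and 51.1 ± 1.0 CPM in untreated cells (−0.08 ± 0.05, adjusted p = 0.132). SLC7A7 (y+LAT1), a low gene, had 41 and 39 reads in untreated cells, 20 and 28 at the lower dose, and 21 and 35 at the higher dose. It fell at the lower dose (−0.76 ± 0.27, adjusted p = 0.0267) and did not pass at the higher (−0.51 ± 0.27, adjusted p = 0.0943). The call at the lower dose was lost when untreated a was left out (−0.63, adjusted p = 0.181) or lower dose a was (−0.55, adjusted p = 0.252). At the higher dose it passed as a fall when higher dose b was left out (−0.92, adjusted p = 0.0262).

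SLC7A6OS, the gene on the opposite strand of SLC7A6, had 18.2 and 16.7 CPM without treatment, 19.5 and 18.2 CPM at the lower dose, and 20.7 and 19.8 CPM at the higher dose. It rose at the higher dose (0.22 ± 0.07, edgeR adjusted p = 0.00469; DESeq2 adjusted p = 0.0763). Leaving out untreated b (0.16, adjusted p = 0.110) or higher dose a (0.19, adjusted p = 0.0633) also ended the call. The library kit does not mark strand, so its reads and those of SLC7A6 cannot be told apart where the genes overlap.

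Among cationic amino acid transporters, SLC7A1 (CAT1), the main carrier of arginine into most cells, had 187.4 and 186.7 CPM without treatment, 176 and 187.0 CPM at the lower dose, and 186.0 and 186.3 CPM at the higher dose. All but lower dose a lay within 2 CPM of each other. The higher dose differed from untreated cells by −0.0071 ± 0.03 (edgeR adjusted p = 0.865). Corrected for length and GC content, SLC7A1 rose (0.14, adjusted p = 2.80e-05). SLC7A2 (CAT2) had 19.2 and 16.3 CPM at the higher dose and 16.1 and 17.2 CPM in untreated cells and did not pass in any comparison.

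Of 7 tested genes of the SLC38 family, mostly carriers of glutamine and other small neutral amino acids, 5 fell at the higher dose, beside falls of 46.4% of the tested transporter genes and 28.2% of all tested genes. SLC38A2, which cells induce when amino acids are short, had 247 and 244 CPM without treatment, 245 and 241 CPM at the lower dose, and 212 and 217 CPM at the higher dose. The libraries of the higher dose lay apart and the other 4 overlapped. SLC38A2 fell by 12.7% at the higher dose (−0.20 ± 0.03, edgeR adjusted p = 6.62e-08) and against the lower dose (−0.18 ± 0.03, adjusted p = 1.02e-06), while the lower dose differed from untreated cells by −0.014 ± 0.03 (adjusted p = 0.766). SLC38A1 had the same shape, with 186 and 185 CPM without treatment, 184 and 189 CPM at the lower dose, and 169.8 and 169.0 CPM at the higher dose. It fell by 8.75% (−0.13 ± 0.03, adjusted p = 0.000176) and against the lower dose (−0.14 ± 0.03, adjusted p = 0.000261), with 0.0039 ± 0.03 at the lower dose (adjusted p = 0.940). Corrected for length and GC content, SLC38A1 differed from untreated cells by −0.06 (adjusted p = 0.0637).

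SLC38A4 (SNAT4) is a carrier of neutral amino acids known best from liver and placenta. By estimated log2 fold change it changed the most of the tested transporter genes at the higher dose. SLC6A6 was almost level with it (−0.85 ± 0.04, against −0.86 ± 0.09 for SLC38A4), a gap smaller than either standard error. SLC38A4 had 19.9 and 15.5 CPM without treatment, 14.7 and 13.4 CPM at the lower dose, and 9.75 and 9.55 CPM at the higher dose. The untreated libraries were the furthest apart, yet each lay above all the others. SLC38A4 fell by 45.0% at the higher dose (−0.86 ± 0.09, edgeR adjusted p = 3.71e-12) and by 19.9% at the lower dose (−0.32 ± 0.08, adjusted p = 0.00175). The fall at the lower dose was −0.14 without untreated a (adjusted p = 0.282) and was not called by DESeq2 (−0.33, adjusted p = 0.0529).

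SLC38A9, the arginine sensor of the lysosome, had 13.3 and 12.8 CPM without treatment, 11.1 and 12.03 CPM at the lower dose, and 9.75 and 9.09 CPM at the higher dose. Its groups did not overlap. SLC38A9 fell by 27.6% at the higher dose (−0.47 ± 0.09, edgeR adjusted p = 6.89e-06) and did not pass at the lower dose (−0.17 ± 0.08, adjusted p = 0.108). SLC38A10, an intracellular member, had 75.9 and 76.6 CPM without treatment, 63.9 and 65.0 CPM at the lower dose, and 66.6 and 62.7 CPM at the higher dose. It fell by 15.5% at the lower dose (−0.24 ± 0.04, adjusted p = 1.59e-06) and by 15.3% at the higher dose (−0.24 ± 0.04, adjusted p = 6.17e-07), and the doses did not differ past the threshold (0.0033 ± 0.04, adjusted p = 0.964). SLC38A6 had 8.03 and 8.18 CPM without treatment, 9.18 and 8.51 CPM at the lower dose, and 7.66 and 7.13 CPM at the higher dose. It fell between the doses (−0.26 ± 0.10, adjusted p = 0.0379; DESeq2 adjusted p = 0.238) and not against untreated cells (−0.13 ± 0.10, adjusted p = 0.274). The lysosomal SLC38A7 averaged 9.85 ± 0.48 CPM without treatment, 9.69 ± 0.97 CPM at the lower dose and 9.84 ± 0.38 CPM at the higher dose, all within their spread.

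Several calls of a fall between the doses were lost when a library was left out. Such a fit leaves a group without a replicate, so it cannot tell whether the library left out carried the fall. SLC1A4 (−0.16 ± 0.06, edgeR adjusted p = 0.0315) and SLC38A9 (−0.29 ± 0.09, adjusted p = 0.00698) were lost when lower dose b or higher dose b was left out, with adjusted p of 0.236 and 0.227 for SLC1A4 and 0.116 and 0.106 for SLC38A9. For SLC38A6 the adjusted p was 0.236 with lower dose a left out, 0.0592 with higher dose a left out and 0.244 with higher dose b left out. The leucine transporter genes SLC43A1 (−0.20 ± 0.07, adjusted p = 0.0325) and SLC43A2 (−0.44 ± 0.15, adjusted p = 0.0197) were as fragile. SLC43A1 was lost when any of the 4 libraries of the doses was left out (adjusted p of 0.0573 to 0.215), and SLC43A2 with any of them but lower dose b (0.0642 to 0.318).

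**Figure D3:**
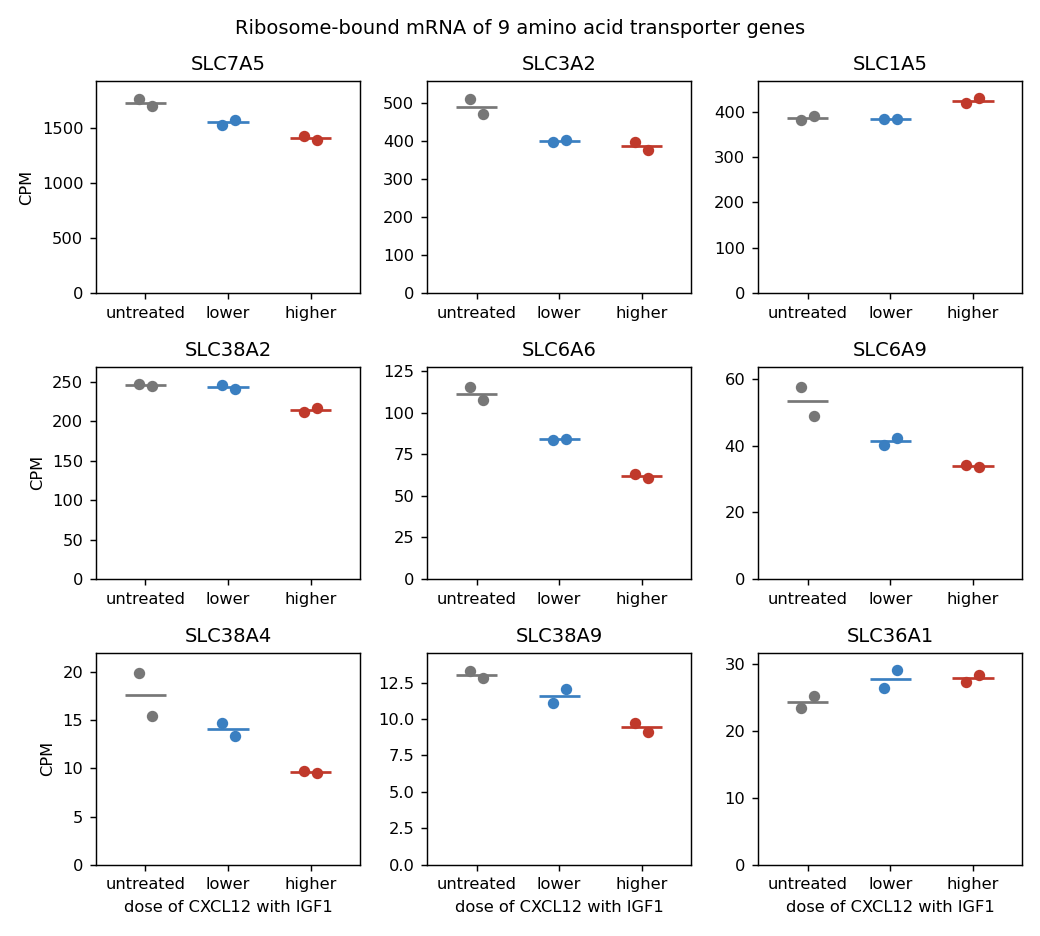
CPM of 9 transporter genes in each library (points; lines are means of 2) by dose, on axes that start at 0. SLC7A5, SLC6A6, SLC6A9 and SLC38A4 step down at each dose, SLC3A2 lies lower at both doses, SLC38A2 and SLC38A9 were called lower at the higher dose and did not pass at the lower dose, and SLC1A5 and SLC36A1 lie above untreated cells at the higher dose.

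The lysosomal proton-coupled carrier SLC36A1 (PAT1) went the other way from SLC38A9. It had 23.5 and 25.1 CPM without treatment, 26.4 and 29.04 CPM at the lower dose, and 27.3 and 28.3 CPM at the higher dose. Both doses lay above the untreated libraries and overlapped with each other. SLC36A1 rose by 14.3% at the higher dose (0.19 ± 0.06, edgeR adjusted p = 0.00517) and by 13.9% at the lower dose (0.19 ± 0.06, adjusted p = 0.0115), with 0.0046 ± 0.06 between the doses (adjusted p = 0.965). DESeq2 called neither rise (adjusted p = 0.0709 at the higher and 0.125 at the lower dose). The rise at the higher dose was also lost without untreated a (0.14, adjusted p = 0.0833) and without higher dose b (0.17, adjusted p = 0.0620), and that at the lower dose when untreated a (0.14, adjusted p = 0.146) or lower dose b (0.12, adjusted p = 0.251) was left out. Its relative SLC36A4, with 58.2 ± 0.17 CPM at the higher dose and 57.1 ± 0.91 CPM without treatment, did not pass (0.03 ± 0.04, adjusted p = 0.615).

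In the SLC1 family the 2 neutral amino acid exchangers moved apart. SLC1A5, the abundant glutamine carrier, had 381 and 390 CPM without treatment, 384 and 385 CPM at the lower dose, and 419 and 430 CPM at the higher dose. The higher dose lay above all other libraries, which overlapped. SLC1A5 rose by 10.1% at the higher dose (0.14 ± 0.03, edgeR adjusted p = 2.12e-05) and by 10.4% against the lower dose (0.14 ± 0.03, adjusted p = 3.09e-05), and differed by −0.0045 ± 0.03 at the lower dose (adjusted p = 0.924). SLC1A4 (ASCT1), a carrier of serine and alanine, had 31.6 and 31.9 CPM without treatment, 25.2 and 26.4 CPM at the lower dose, and 23.6 and 22.6 CPM at the higher dose. Its libraries stood in the order of the doses without overlap. SLC1A4 fell by 27.3% at the higher dose (−0.46 ± 0.06, adjusted p = 8.04e-10) and by 18.8% at the lower dose (−0.30 ± 0.06, adjusted p = 2.12e-05).

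The glutamate transporters were scarce. SLC1A1 (EAAT3) had 93 and 85 reads in untreated cells, 73 and 66 at the lower dose, and 73 and 56 at the higher dose. It fell at the higher dose (−0.47 ± 0.17, edgeR adjusted p = 0.0197) and did not pass at the lower dose (−0.39 ± 0.17, adjusted p = 0.0767). The call at the higher dose was lost with DESeq2 (adjusted p = 0.161), without untreated a (−0.30, adjusted p = 0.243) and without higher dose b (−0.28, adjusted p = 0.275). SLC1A3 (EAAT1) averaged 2.72 ± 0.22 CPM at the higher dose and 3.34 ± 0.39 CPM in untreated cells (−0.29 ± 0.16, adjusted p = 0.125). SLC1A7 had 8 to 23 reads a library and did not pass in any comparison.

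The SLC43 family carries large neutral amino acids without sodium, apart from SLC43A3. SLC43A1 (LAT3) had 18.3 and 17.2 CPM without treatment, 15.8 and 16.01 CPM at the lower dose, and 14.2 and 13.5 CPM at the higher dose. SLC43A2 (LAT4) had 129 and 137 reads in untreated cells, 126 and 101 at the lower dose, and 83 and 81 at the higher dose. SLC43A1 fell by 21.8% at the higher dose (−0.35 ± 0.07, edgeR adjusted p = 4.07e-05) and SLC43A2 fell by 38.4% (−0.70 ± 0.15, adjusted p = 5.11e-05). Neither passed at the lower dose (−0.15 ± 0.07, adjusted p = 0.0884, and −0.26 ± 0.14, adjusted p = 0.145). SLC43A3 had 361 and 358 CPM without treatment, 341 and 357 CPM at the lower dose, and 377 and 372 CPM at the higher dose. It rose between the doses (0.10 ± 0.03, adjusted p = 0.00308), and against untreated cells the higher dose missed the threshold (0.06 ± 0.03, adjusted p = 0.0682), which it passed when corrected for length and GC content (0.07, adjusted p = 0.0110). The rise between the doses was lost when lower dose a (0.07, adjusted p = 0.134) or higher dose a (0.09, adjusted p = 0.0592) was left out.

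The SLC6 carriers of taurine and glycine fell at every step. SLC6A6, which brings in the osmolyte taurine, had 115 and 107 CPM without treatment, 83.6 and 84.2 CPM at the lower dose, and 62.8 and 60.4 CPM at the higher dose. The groups stood well apart. SLC6A6 fell by 44.5% at the higher dose (−0.85 ± 0.04, edgeR adjusted p = 5.74e-26). It fell by 24.5% at the lower dose (−0.41 ± 0.04, adjusted p = 4.00e-13) and by 26.5% between the doses (adjusted p = 2.56e-13). SLC6A9, the glycine transporter, had 57.7 and 48.9 CPM without treatment, 40.3 and 42.3 CPM at the lower dose, and 34.3 and 33.4 CPM at the higher dose. SLC6A9 fell by 36.2% at the higher dose (−0.65 ± 0.05, adjusted p = 2.09e-15), by 22.2% at the lower dose (−0.36 ± 0.05, adjusted p = 1.31e-07) and between the doses (−0.29 ± 0.06, adjusted p = 4.29e-05).

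SLC6A8, the creatine transporter, averaged 4.55 ± 0.22 CPM at the higher dose and 5.10 ± 0.37 CPM in untreated cells and did not pass (−0.16 ± 0.13, edgeR adjusted p = 0.290). It has a near-identical copy, SLC6A10P, with 0 to 2 reads a library, so its count is uncertain. SLC6A14, a broad amino acid carrier, had 6 to 17 reads a library and did not pass in any comparison.

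Related genes that are not on the transporter list were counted in 5 lists at the higher dose against untreated cells. Of 24 tested genes of the ATF4 pathway, the response to amino acid shortage, 14 rose, 3 fell and 7 did not pass, with a median log2 fold change of 0.27. Rises were 58.3% of this list and 28.1% of all tested genes, and falls 12.5% and 28.2%. The largest changes were those of the transcription factors CEBPB, which rose to 75.5 CPM against 46.6 CPM in untreated cells (0.70 ± 0.04, edgeR adjusted p = 8.72e-20), ATF3 (0.52 ± 0.10) and ATF5 (0.49 ± 0.04), and of CTH, a cysteine synthesis enzyme, which fell to 13.1 CPM against 20.7 CPM in untreated cells (−0.65 ± 0.07, adjusted p = 1.86e-11). ATF4 itself, named after its value was seen, rose to 526 CPM against 389 CPM in untreated cells (0.44 ± 0.03, adjusted p = 4.71e-20).

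Of 29 tested genes of amino acid sensing upstream of mTORC1, 12 rose, 4 fell and 13 did not pass (median 0.12). The 55.2% called was near the 56.3% of all tested genes. Rises were 41.4% of the list and 28.1% of all genes, and falls 13.8% and 28.2%. SESN2, the leucine sensor Sestrin2, rose (0.54 ± 0.08, edgeR adjusted p = 1.87e-08), and so did MIOS, a subunit of GATOR2 (0.44 ± 0.07, adjusted p = 6.01e-07). SESN3 (−0.87 ± 0.19, adjusted p = 9.99e-05) and WDR59, another GATOR2 subunit (−0.65 ± 0.08, adjusted p = 1.47e-09), fell. Corrected for length and GC content, 7 genes of this list fell. The share of all tested genes that fell with this correction is not reported here.

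Of 13 genes of NRF2 and its targets and of glutathione synthesis, which draws on the cystine that SLC7A11 brings in, 3 rose, 5 fell and 5 did not pass (median −0.06). That is 61.5% called in the list against 56.3% of all tested genes. Rises were 23.1% of the list and 28.1% of all genes, and falls 38.5% and 28.2%. The sulfiredoxin gene SRXN1 rose (0.55 ± 0.03, edgeR adjusted p = 4.71e-20), and the factor NFE2L2 (−0.35 ± 0.04), TXNRD1 (−0.33 ± 0.03) and NQO1 (−0.27 ± 0.03) fell. Of 7 tested genes in a list of transporters of other families and their accessory proteins, 2 rose and 1 fell. That is 42.9% called, against 56.3% of all tested genes. SLC66A1 (PQLC2 in the files), the lysosomal exporter of arginine and lysine, rose (0.27 ± 0.06, adjusted p = 0.000253), as did MFSD12 (C19orf28 in the files), which takes cysteine into lysosomes (0.08 ± 0.03, adjusted p = 0.0326), while the cystine exporter CTNS fell (−0.21 ± 0.07, adjusted p = 0.00505). DESeq2 called neither MFSD12 (adjusted p = 0.140) nor CTNS (adjusted p = 0.0681). The MFSD12 call was lost with untreated b, higher dose a or higher dose b left out (adjusted p of 0.0634 to 0.177), and that of CTNS with higher dose a left out (−0.15, adjusted p = 0.127). Of 7 tested regulators of surface transporters, 1 rose and 3 fell, and the 57.1% called was near the 56.3% of all tested genes. Falls were 42.9% of these regulators and 28.2% of all genes, and rises 14.3% and 28.1%. The ubiquitin ligase NEDD4L rose (0.11 ± 0.03, adjusted p = 0.00144), and NEDD4 (−0.24 ± 0.04), the kinase SGK1 (−0.15 ± 0.06, adjusted p = 0.0224) and ARL6IP5, a negative regulator of SLC1A1 (−0.33 ± 0.03), fell. For SGK1 the adjusted p was 0.139 with DESeq2, 0.184 with untreated a left out and 0.226 with higher dose a left out. MYC, described as an inducer of several of these transporters, averaged 124 CPM at the higher dose and 126 CPM in untreated cells and did not pass (−0.02 ± 0.03, adjusted p = 0.648); it too was named after its value was seen.

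**Figure D4:**
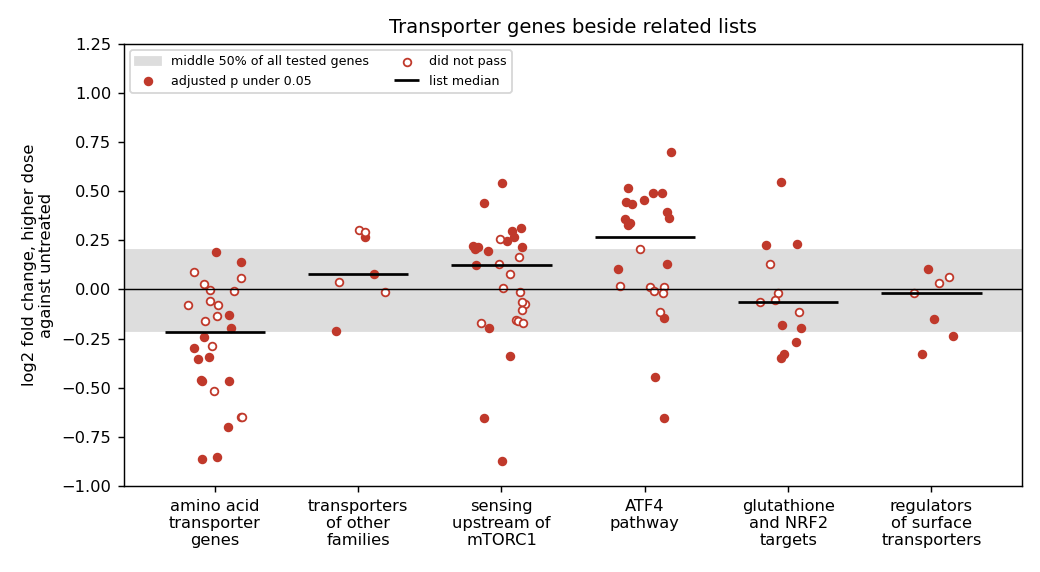
Log2 fold changes of the higher dose against untreated cells for the tested transporter genes and 5 related lists (points are genes, filled where the adjusted p was under 0.05; black lines are medians; the grey band is the interquartile range of all tested genes). The transporter genes have a median of −0.22 and the ATF4 pathway a median of 0.27.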

How the data were processed

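The authors deposited raw read counts for each gene symbol, in 1 file a library (6 in all). Per the submitters' processing notes, they used CASAVA 1.8.1, TopHat 1.4.0, HTSeq and the human build hg19. For the annotation, the counting mode and the strand setting of the counting, nothing is given in the sources used here. The 5 HTSeq summary lines of each file held 9.40% to 10.2% of the reads and were left out.

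All 21619 genes entered edgeR 4.0.16 in R 4.3.3, with TMM factors (0.997 to 1.003), filterByExpr, 3 group means (3 residual degrees of freedom) and a robust quasi-likelihood F test. P-values were adjusted by Benjamini-Hochberg over the 13548 genes that passed the filter and called at 0.05. Each gene's spread was moderated toward a trend over all tested genes. P-values thus rest on more than the 3 residual degrees of freedom. Each standard error is the log2 fold change, without its sign, divided by the root of F. With a biological coefficient of variation of 1.79%, changes of small size pass. CPM are counts scaled by library size and TMM factor. The fit was tested on simulated counts with known changes. DESeq2 1.42.0, RLE factors, no filter, fits on 2 groups, a replicate block, a correction for transcript length and GC content, and leaving out each library were the alternatives.

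Levels per kb used the longest transcript of the GENCODE basic set (GRCh38), which matched 88.3% of tested genes. Promoter windows came from RefSeq (GRCh38.p14); 24 of 28 tested transporter genes had 1 or more.

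The transporter genes, the 5 related gene lists and the named genes were chosen with earlier results of these data known. Not every untested gene is reported here by name. All 28 tested transporter genes are named, those called at the higher dose (15) with every library's value. Of each related list, at most the 4 called genes with the largest change are named, and ATF4 and MYC were added after their values were seen.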

Additional observations from a re-analysis of the deposited data

How the results depend on the processing

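Of 37 calls on the tested amino acid transporter genes over the 3 comparisons, 37 were kept with RLE factors, without the low-count filter, with only the 2 groups compared, and without untreated b. DESeq2 lost 9 and gave no adjusted p for SLC7A7 at the lower dose. The correction for length and GC content lost 2 (SLC38A1 at the higher dose, SLC1A4 between the doses), and leaving out each of the other 5 libraries lost 4 to 7. Samples of the same letter did not deviate together (correlations of −0.045 to 0.00254 over 13548 genes), so no shared effect of a letter was seen. Whether libraries of 1 letter were handled together cannot be told from this. With a replicate block 13 genes fell and 2 rose at the higher dose against untreated cells, and all 37 calls were kept. Rises of amino acid transporter genes at the lower dose numbered 0 with DESeq2 and 0 to 1 when a library was left out. At the higher dose there were 1 with DESeq2, 4 with the correction (SLC7A1 and SLC43A3 added) and 1 to 2 with a library left out. Between the doses 1 to 2 rose with a library left out, and the falls numbered 6 with DESeq2 and 6 to 12 with a library left out. These counts are given without the shares of all tested genes under the same settings. Small values that did not pass changed sign. With the correction, SLC1A5 at the lower dose had 0.034, SLC7A6 at the higher dose 0.023 and SLC7A1 at the higher dose 0.14. With a library left out, SLC1A5 at the lower dose ranged from −0.025 to 0.011, SLC36A1 between the doses from −0.061 to 0.074, SLC38A1 at the lower dose from −0.015 to 0.021, SLC38A10 between the doses from −0.042 to 0.047 and SLC7A11 at the lower dose from −0.045 to 0.062. Where a library was left out, the lone library of its group was assumed to vary like the others. The cause of these shifts was not tested. The 5 tested genes of lowest CPM (SLC1A1, SLC1A3, SLC7A7, SLC1A7, SLC6A14) had standard errors of 0.15 to 0.48, so small changes in them were not detectable.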
